A study of Rattus norvegicus with 4 samples.

Results

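Ldha, Pkm, Tpi1 and Eno1 encode 4 enzymes of glycolysis and of the lactate formation that follows it, and their relative expression was followed in the maturing rat retina. They were taken by gene symbol from the platform's gene table, and the choice was made on the same array values that are described here, so the values of the 4 genes are a description without a test. Each gene had 1 probe, and the 4 genes stood among 9653 genes listed for the arrays. Two-colour arrays set an older retina against a 5-week retina on the same slide, with 2 arrays for 11 weeks and 2 for 20 weeks, and the dyes were exchanged within each pair. The older groups were retinas of albino Lewis rats at 11 weeks and at 20 weeks, and both were set against retinas of the same strain at 5 weeks. All rats had been kept from birth in ordinary laboratory housing with day and night light. Whole retinas were pooled before RNA extraction, so no value belongs to 1 animal, and the sources used here give neither the number nor the sex of the animals. It is not stated whether a dye-exchanged pair used 1 extract of each age or separate ones, so the spread between arrays may be technical. Every array held 5-week retina, and none held 11 and 20 weeks together. Whether the 11-week and 20-week pairs held the same 5-week extract is not stated either.

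The retina turns much of its glucose into lactate even when oxygen is plentiful, a habit known as aerobic glycolysis, and photoreceptors are known as its main site. Triose-phosphate isomerase (Tpi1) makes both products of aldolase available to the later steps, enolase 1 (Eno1) forms phosphoenolpyruvate, and pyruvate kinase M (Pkm) turns that into pyruvate with a gain of ATP. Lactate dehydrogenase A (Ldha) then reduces pyruvate to lactate, which restores the NAD+ that glycolysis needs and gives the product that leaves the cell. Ldha and Eno1 are among the textbook targets of hypoxia-inducible factor in mouse and human cells.

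The promoter letters of the 4 genes are shown because the 4 genes lay low together in the older retinas. RefSeq windows of the GRCr8 build were cut to the 250 bases before each start. Capitals mark the hypoxia response cores ACGTG and GCGTG, searched on both strands, so that CACGT and CACGC are the same cores read from the other strand.
Ldha, chr1:106507842-106508091, plus strand: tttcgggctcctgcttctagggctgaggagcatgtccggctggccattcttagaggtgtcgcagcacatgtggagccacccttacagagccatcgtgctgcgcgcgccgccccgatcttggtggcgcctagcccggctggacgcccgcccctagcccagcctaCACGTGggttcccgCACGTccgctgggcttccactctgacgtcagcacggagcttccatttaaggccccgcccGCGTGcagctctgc
Pkm, chr8:68953385-68953634, plus strand: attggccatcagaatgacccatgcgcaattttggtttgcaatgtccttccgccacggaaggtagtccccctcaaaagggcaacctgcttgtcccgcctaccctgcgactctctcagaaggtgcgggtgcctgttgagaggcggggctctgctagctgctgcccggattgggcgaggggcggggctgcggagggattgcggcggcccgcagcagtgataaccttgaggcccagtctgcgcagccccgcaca
Tpi1, chr4:159305089-159305338, minus strand: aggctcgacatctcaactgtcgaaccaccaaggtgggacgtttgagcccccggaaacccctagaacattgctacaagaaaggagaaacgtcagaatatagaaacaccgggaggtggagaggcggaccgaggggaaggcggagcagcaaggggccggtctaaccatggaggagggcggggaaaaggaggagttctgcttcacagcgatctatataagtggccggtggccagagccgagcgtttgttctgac
Eno1, window 1, chr5:166002617-166002866, plus strand: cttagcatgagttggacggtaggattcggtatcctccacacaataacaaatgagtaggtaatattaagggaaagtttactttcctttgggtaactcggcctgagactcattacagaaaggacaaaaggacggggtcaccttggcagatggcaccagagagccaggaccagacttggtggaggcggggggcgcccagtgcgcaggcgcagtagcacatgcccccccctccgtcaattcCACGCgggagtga
Eno1, window 2, chr5:166003111-166003360, plus strand: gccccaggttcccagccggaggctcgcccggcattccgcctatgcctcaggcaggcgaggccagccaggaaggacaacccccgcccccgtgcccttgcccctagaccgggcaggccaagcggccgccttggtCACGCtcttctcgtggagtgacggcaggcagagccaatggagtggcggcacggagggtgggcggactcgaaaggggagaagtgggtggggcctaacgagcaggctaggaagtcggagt
The Ldha window held 3 matches to ACGTG. Of these, 2 were the strands of a palindromic E-box, CACGTG, at 87 to 82 bases before the start, and the other lay at 73 to 69 bases. It also held GCGTG at 14 to 10 bases before the start, overlapping none of the others. Eno1 had GCGTG in each of its windows, at 13 to 9 bases before the start in window 1 and at 118 to 114 in window 2. Neither core was found in the Pkm or the Tpi1 window. Thus 2 of the 4 enzymes held a core, as did 10 of the 16 other glycolytic enzymes and lactate dehydrogenases that had both a measurement and a window. A gene with several windows was counted if any of them held a core. Over all 33469 windows of this length, 36.7% held either core, 16.6% held ACGTG, 25.9% held GCGTG and 5.59% held CACGTG. These are shares of single windows and not of genes, so the counts of genes cannot be measured against them. The GC box GGGCGG was in the Ldha, Pkm and Tpi1 windows and in window 2 of Eno1, and in 30.5% of all windows. TAATCC, the core of the photoreceptor factor Crx, was in 6.34% of all windows and in none of these 5. GC content was 66.4% for Ldha, 63.2% for Pkm, 56.8% for Tpi1 and 54.4% and 69.2% for the windows of Eno1, with a median of 51.2% over all windows. These are letters in a window, and no binding was measured.

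Every value that follows is a log2 ratio, older retina over 5-week retina, measured from the median probe with a gene name on the same array. A value of 0 is thus the median named probe and not an unchanged amount of RNA. The deposited ratios were read as Cy5 over Cy3, the likely direction, since the titles name the age in Cy5 before the other. Had it been the reverse, every sign would turn. The arrays are called by the dye of the older retina. Before centring, and as Cy5 over Cy3, the median named probe stood at -0.045 and -0.13 on the 11-week arrays in Cy5 and Cy3, and at 0.543 and -0.01 on the 20-week arrays in Cy5 and Cy3. After turning to older over 5 weeks, the arrays of the 11-week pair had a correlation of -0.3 across 9653 genes. Those of the 20-week pair had one of 0.166 across 9652. Between the ages it was 0.678 for the arrays with the older retina in Cy5 and 0.595 for those in Cy3. Arrays were thus more alike by dye than by age. These values describe genes that share slides and dyes. Each pair had its own slides, and slide and age cannot be told apart. The ratios hold no signal level, so neither a gene's abundance nor the presence of a retinal marker could be checked.

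The 4 enzymes lay below the median named probe on average at both older ages, and each lay farther below it at 20 weeks than at 11 weeks. Their means were between -0.43 and -0.20 at 11 weeks and between -0.70 and -0.56 at 20 weeks. Of the 16 values, 15 were below 0. On the 20-week arrays the 4 values lay together between -0.41 and -0.12 in Cy5 and between -1.05 and -0.88 in Cy3.

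Ldha stood at -0.39 with the 11-week retina in Cy5 and at -0.47 with it in Cy3. On the 20-week arrays it stood at -0.41 in Cy5 and -0.99 in Cy3. All 4 values were low, and that of the 20-week Cy3 array stood apart from the rest. The mean was -0.43 ± 0.06 at 11 weeks, a ratio of 0.743, and -0.70 ± 0.41 at 20 weeks, a ratio of 0.616 (SD, n = 2 arrays each). Of 9652 genes, 100 had a lower mean at 11 weeks and 23 had a lower mean at 20 weeks. Its mean was the lowest of the 4 enzymes at both ages, though on the Cy3 arrays Pkm was lower.

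Tpi1 was at -0.13 with the 11-week retina in Cy5 and at -0.39 with it in Cy3. With the 20-week retina it was at -0.30 in Cy5 and -0.88 in Cy3. All 4 values were below 0, and in either dye the 20-week value was the lower one. The means were -0.26 ± 0.18 at 11 weeks and -0.59 ± 0.41 at 20 weeks (SD, n = 2 each), or ratios of 0.836 and 0.664. A lower mean was held by 608 genes at 11 weeks and by 42 at 20 weeks.

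Eno1 was at 0.03 with the 11-week retina in Cy5, the single value of the 4 enzymes above 0, and at -0.42 with it in Cy3. Its 20-week values were -0.22 in Cy5 and -0.90 in Cy3. The arrays of the 11-week pair thus lay on opposite sides of the median named probe, and those of the 20-week pair on the same side. The means were -0.20 ± 0.32 at 11 weeks and -0.56 ± 0.48 at 20 weeks (SD, n = 2 each), or ratios of 0.873 and 0.677. A lower mean was held by 1096 genes at 11 weeks and by 51 at 20 weeks, so the mean of Eno1 lay nearest to 0 of the 4 at either age.

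Pkm had the widest gap between dyes. It was at -0.02 and -0.72 with the 11-week retina in Cy5 and Cy3, and at -0.12 and -1.05 with the 20-week retina in Cy5 and Cy3. At both ages the Cy5 value was near 0 and the Cy3 value was the lowest of the 4 enzymes on that array. The means were -0.37 ± 0.50 at 11 weeks, a ratio of 0.773, and -0.58 ± 0.66 at 20 weeks, a ratio of 0.667 (SD, n = 2 each). Both SDs were larger than the size of the means they belong to. A lower mean was held by 202 genes at 11 weeks and by 44 at 20 weeks. The Pkm gene yields the M1 and M2 splice forms, and the probe's sequence was not used here, so the value is not assigned to either.

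**Figure D1:**
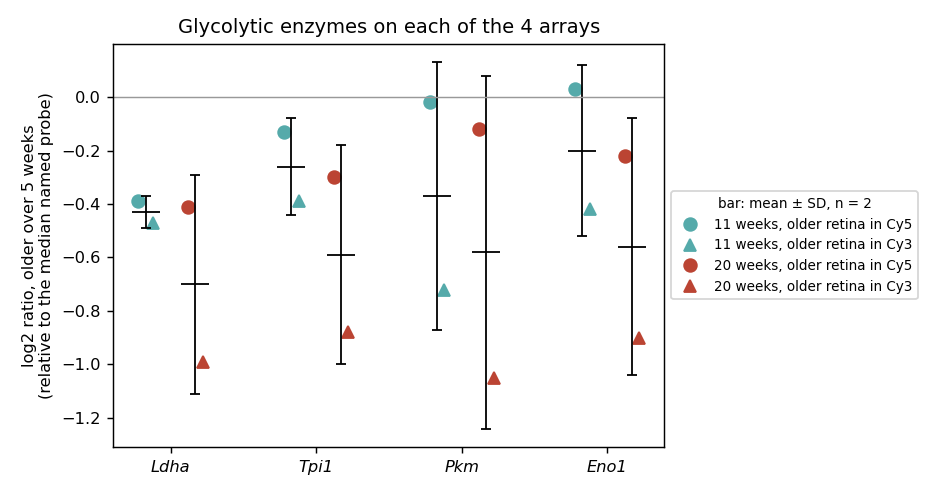
Log2 ratio of the older over the 5-week retina (vertical axis, relative to the median named probe) for each of the 4 enzymes. Circles are arrays with the older retina in Cy5, triangles those with it in Cy3, and bars give the mean ± SD of the 2 arrays of an age. The 11-week circle of Eno1, at 0.03, is the single point above 0, and the 20-week triangles lie between -1.05 and -0.88.

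Below the median named probe on all 4 arrays were 3 of the 4 enzymes (Ldha, Pkm and Tpi1), against 12.1% of all genes. On both 20-week arrays it was all 4 enzymes, against 26.7%. The 20-week and 11-week values were also compared, each taken over 5-week retina, perhaps of different extracts. The 20-week value was the lower one in either dye for all 4 enzymes, against 29.7% of genes. Since the enzymes were chosen on these values, nothing is read from these counts. The differences of 20 minus 11 weeks were -0.02 in Cy5 and -0.51 in Cy3 for Ldha, and -0.10 and -0.33 for Pkm. They were -0.17 and -0.50 for Tpi1, and -0.26 and -0.48 for Eno1. In each case the Cy3 difference was the wider one.

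The order of the 4 enzymes was mostly not resolved. At 11 weeks every pair of neighbours in the order Ldha, Pkm, Tpi1, Eno1 changed places between the dyes. At 20 weeks Ldha was below Tpi1 on each array, with a difference of -0.11 in Cy5 and in Cy3. Tpi1 and Pkm changed places between those arrays, with a difference of -0.18 in Cy5 and 0.17 in Cy3. Pkm and Eno1 did so too, with 0.11 and -0.15.

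The part of each ratio that stayed with Cy5, whichever age it labelled, was 0.17 for Ldha, 0.21 for Tpi1, 0.28 for Eno1 and 0.41 for Pkm on the log2 scale. From the 5th to the 95th percentile of all genes this dye effect ran from -0.30 to 0.33, so Pkm was beyond the upper bound. Averaging over exchanged dyes removes it only as far as it was alike on both arrays of a pair. With 1 array left out and the dye effect taken from the other pair, the 11-week value of Ldha was -0.18 without the Cy5 array and -0.68 without the Cy3 array. Its 20-week value was -0.94 without the Cy5 array and -0.45 without the Cy3 array. At 11 weeks Tpi1 was at -0.09 without the Cy5 array and -0.42 without the Cy3 array, and Eno1 at -0.09 and -0.31. None of these values was above 0.

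Without centring, the 11-week means were -0.39 for Ldha, -0.33 for Pkm, -0.22 for Tpi1 and -0.15 for Eno1. The 20-week means were then -0.42 for Ldha, -0.31 for Pkm, -0.31 for Tpi1 and -0.29 for Eno1, while the median gene stood at 0.29. Uncentred, the 20-week mean was thus little below the 11-week mean for Ldha and not below it for Pkm. It remained lower for Tpi1 and Eno1. All 4 values of the 20-week Cy5 array were then above 0, between 0.14 and 0.43, though under that array's median. Those of the 20-week Cy3 array were between -1.04 and -0.87.

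**Figure D2:**
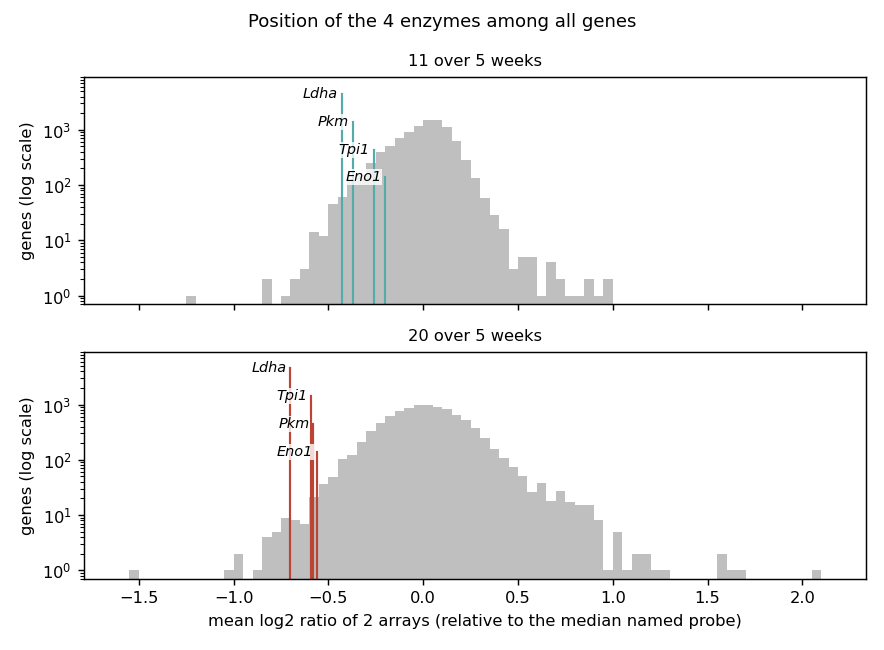
Number of genes (vertical axis, log scale) by mean log2 ratio of the older over the 5-week retina (horizontal axis, relative to the median named probe), with 11 weeks above and 20 weeks below, in 9652 genes. Coloured lines mark the enzymes: at 11 weeks they spread between -0.43 and -0.20 around the 5th percentile of -0.28, and at 20 weeks all 4 lie at or below -0.56, under the 5th percentile of -0.32.

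The other glycolytic enzymes were tested with limma over all genes, in a model with a gene-wise dye effect, and a gene that passed had an adjusted p under 0.05 there. At 11 weeks 5 of the 17 other measured glycolytic enzymes and lactate dehydrogenases passed as lower and 1 as higher, against 6.34% and 2.61% of all genes. Their median was -0.08, against 0.02 over all genes. At 20 weeks 8 passed as lower and 1 as higher, against 13.9% and 17.8% of all genes. The median was then -0.19, with 16 of the 17 below 0, against 0.01 over all genes. Without a dye term limma passed 0 of them, and 0 genes of any kind, with a smallest adjusted p of 0.999 at 11 weeks and 0.182 at 20 weeks. At an unadjusted p under 0.05 that model had 0 of the 17 at 11 weeks and 3 lower and 0 higher at 20 weeks, and 367 and 888 of all genes. In simulated data the fit with the dye term called more unchanged genes than its threshold allows for. Without centring 0 of the 17 passed at either age, and their median was -0.04 at 11 weeks and 0.09 at 20 weeks.

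The steps after aldolase, from triose-phosphate isomerase to pyruvate kinase, hold 3 of the 4 enzymes. Of the 6 other measured genes of these steps, 2 passed as lower at 11 weeks and 4 at 20 weeks, with medians of -0.22 and -0.38 (-0.18 and -0.10 uncentred). Gapdhs encodes the sperm form of glyceraldehyde-phosphate dehydrogenase, the enzyme that acts right after Tpi1. It was at -0.02 and -0.41 on the 11-week arrays in Cy5 and Cy3, and at -0.41 and -1.03 on the 20-week arrays. The 20-week values were both below 0, as those of Tpi1 were. Its mean was -0.21 ± 0.28 at 11 weeks (limma adjusted p 0.0871) and -0.72 ± 0.44 at 20 weeks (adjusted p 0.000141). Gapdh itself was not analysed here, and which transcript the probe reads was not checked.

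Pgk1, phosphoglycerate kinase, which makes the pathway's earlier ATP, was lower at both ages. It stood at -0.25 and -0.29 on the 11-week arrays and at -0.30 and -0.60 on the 20-week arrays, in Cy5 and Cy3. Its means were -0.27 ± 0.03 (limma adjusted p 0.0434) and -0.45 ± 0.21 (adjusted p 0.0019). Like Ldha, Pkm and Tpi1 it was below 0 on all 4 arrays. Pgam1, the phosphoglycerate mutase just before enolase, was at -0.23 ± 0.33 at 11 weeks, where it did not pass, and at -0.40 ± 0.45 at 20 weeks (adjusted p 0.0024). Bpgm, bisphosphoglycerate mutase, was at -0.31 ± 0.13 and -0.36 ± 0.34 and passed at both ages. Pgam2, the muscle mutase, at -0.15, and Pklr, the liver and red cell pyruvate kinase, at -0.11 did not pass at 20 weeks. Set beside Pkm, Pklr stood at -0.03 and -0.19 on the 20-week arrays in Cy5 and Cy3.

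Of 8 measured genes of the earlier steps, from hexokinase to aldolase, 2 passed as lower at 11 weeks and 4 at 20 weeks, with medians of -0.08 and -0.20 (-0.03 and 0.08 uncentred). Pfkl, the liver-type subunit of phosphofructokinase, which catalyses the committing step, was at -0.18 ± 0.19 at 11 weeks and did not pass. On the 20-week arrays it was at -0.36 and -0.55, with a mean of -0.46 ± 0.14 (limma adjusted p 0.00112). Pfkp, the platelet-type subunit, passed at both ages with its lower mean at 11 weeks, at -0.40 ± 0.41, and -0.26 ± 0.22 at 20 weeks. Aldoc, the brain aldolase, was at -0.26 ± 0.40 and -0.33 ± 0.47 and passed at both ages, with values of 0.02 and 0.00 on the Cy5 arrays. Gpi, glucose-phosphate isomerase, passed at 20 weeks at -0.22, but its 2 probes read -0.36 and -0.09. The hexokinases that prime glucose did not pass, with Hk1 at -0.18 ± 0.01 and Hk2 at -0.14 ± 0.01 at 20 weeks. Neither did Pfkm at -0.08 or Aldoa at -0.13. The 11-week arrays of Aldoa lay on opposite sides, at 0.53 and -0.70.

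Ldhb, whose subunit favours lactate oxidation, passed as lower at 11 weeks, at -0.27 ± 0.04 (limma adjusted p 0.0376), and was at -0.19 ± 0.17 at 20 weeks (adjusted p 0.0598). Ldhc, the testis form, passed as higher at both ages, at 0.27 ± 0.18 and 0.26 ± 0.22. Ldhd, the D-lactate dehydrogenase of mitochondria, was at 0.19 and -0.06 and did not pass. These 3 genes had a median of 0.19 at 11 weeks and -0.06 at 20 weeks. Hk3, Pgk2, Eno2 and Eno3 were not analysed here.

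**Figure D3:**
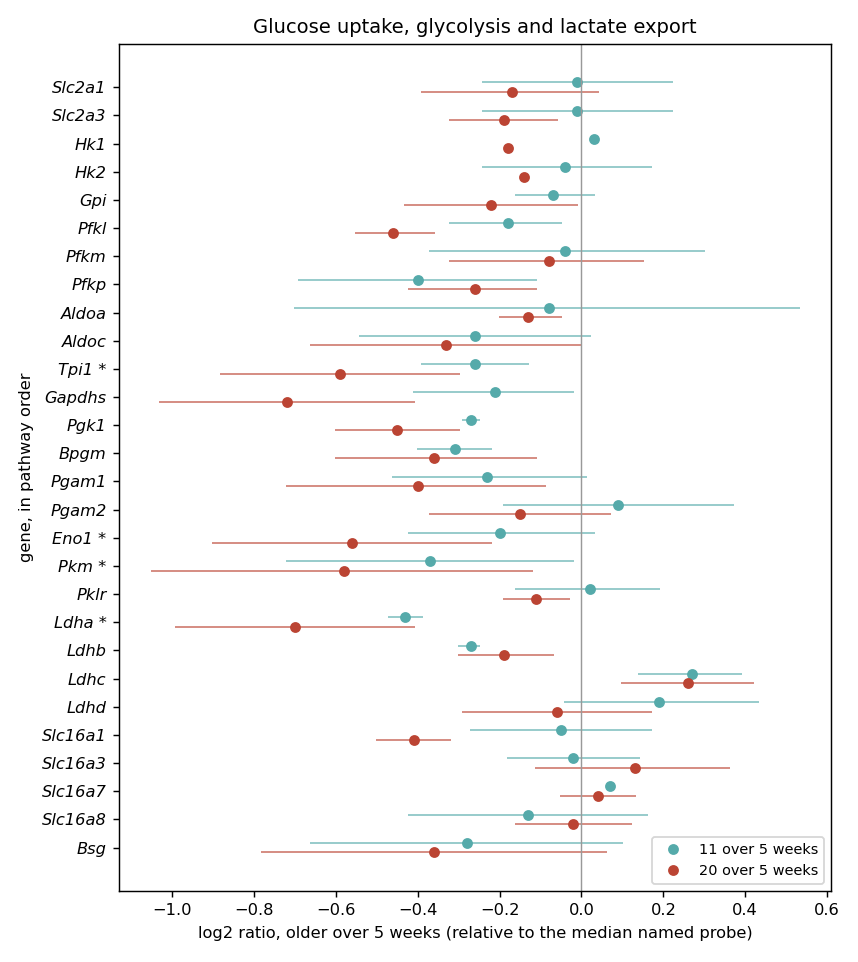
Log2 ratio of the older over the 5-week retina (horizontal axis, relative to the median named probe) for glucose transporters, glycolytic enzymes, lactate dehydrogenases and lactate carriers from top to bottom in pathway order. Points are means of 2 arrays, lines join the 2 arrays, and asterisks mark Tpi1, Eno1, Pkm and Ldha. From Tpi1 to Ldha, the 20-week means of Tpi1, Gapdhs, Eno1, Pkm and Ldha lie at or below -0.56, while Pgam2 and Pklr lie at -0.15 and -0.11.

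The counts of passed genes in the lists that follow stand beside the same shares of all genes, 6.34% lower and 2.61% higher at 11 weeks and 13.9% lower and 17.8% higher at 20 weeks, and a count near them is no result about its list. Lactate leaves the cell through monocarboxylate carriers such as Slc16a1, which Bsg, basigin, brings to the membrane. Slc16a1 was at -0.05 at 11 weeks. On the 20-week arrays it was at -0.32 and -0.50 in Cy5 and Cy3, with a mean of -0.41 ± 0.13 (limma adjusted p 0.00298). Bsg passed as lower at both ages, at -0.28 ± 0.54 and -0.36 ± 0.59, yet it stood above 0 on both Cy5 arrays, at 0.10 and 0.06. Slc2a4, the insulin-responsive glucose transporter, passed as higher at 20 weeks at 0.25, and the transporters Slc2a1 at -0.17 and Slc2a3 at -0.19 did not pass. Of the 8 transport genes 1 passed as lower at 11 weeks, and 2 as lower and 1 as higher at 20 weeks, with medians of -0.03 and -0.10 (0.01 and 0.18 uncentred).

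Of 12 measured regulators of glycolysis, 1 passed each way at 11 weeks, and 3 passed as higher and 2 as lower at 20 weeks, with medians of 0.09 and 0.05. The 20-week counts were near the shares of all genes, 17.8% higher and 13.9% lower. Pfkfb4, a bifunctional enzyme that sets the level of a phosphofructokinase activator, was at 0.45 and 0.67 on the 20-week arrays, with a mean of 0.56 ± 0.15 (limma adjusted p 0.000579). Its relative Pfkfb3, which favours synthesis of that activator, passed as lower at -0.26 ± 0.15. Gckr passed as higher at 0.30 ± 0.25. Of 15 hypoxia targets outside glycolysis, 3 passed as lower and 0 as higher at 11 weeks, and 4 as lower and 2 as higher at 20 weeks, with medians of -0.08 and -0.07. The 2 higher ones were no more than the 17.8% of all genes would give. Bnip3, a mitophagy receptor, passed as lower at both ages and was at -0.45 ± 0.20 at 20 weeks. Tfrc, the transferrin receptor, was at -0.46 ± 0.70 and Epo, erythropoietin, at 0.34 ± 0.75 at 20 weeks. Both passed, although their SDs, which include the dye effect that the fit takes out, were larger than the size of their means.

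Beyond pyruvate, 4 of 17 tricarboxylic acid cycle genes passed as lower at 11 weeks, and 10 as lower and 1 as higher at 20 weeks, with medians of -0.15 and -0.20 (-0.10 and 0.07 uncentred). At 20 weeks Sdhc, a succinate dehydrogenase subunit, was at -0.44 ± 0.03 and Idh1, the cytosolic isocitrate dehydrogenase, at -0.35 ± 0.24. The Idh3g mean of -1.52 ± 1.89 came from 1 of its 2 probes on 1 array, at -5.62 with the 20-week retina in Cy3. Idh3g is counted among the 10 that passed as lower, while its other probe had a 20-week mean of -0.12. Of 11 genes of pyruvate entry, 1 passed each way at 20 weeks, Mpc1, a pyruvate carrier subunit, as lower at -0.21 ± 0.10 and Pdhx as higher at 0.26 ± 0.10. The list median was -0.11 at 11 weeks, where 0 passed, and -0.10 at 20 weeks. Pdk1, a kinase that holds back pyruvate dehydrogenase, was at -0.13 ± 0.15 and did not pass. Of 5 genes of the shuttles that carry reducing equivalents of NADH into mitochondria, 2 passed as lower at 20 weeks, Got2 at -0.37 ± 0.03 and Slc25a11 at -0.24 ± 0.24, and Got1 at -0.22 did not. The list median was -0.02 at 11 weeks and -0.22 at 20 weeks.

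In the pentose phosphate pathway 1 of 4 genes passed at 20 weeks, Rpia, ribose-phosphate isomerase, at -0.13 and -0.22 on the 11-week arrays and 0.85 and 0.43 on the 20-week arrays. Tkt at -0.17 and Taldo1 at -0.10 did not pass. Of 14 genes of gluconeogenesis and glycogen, 1 passed each way at 11 weeks, and 3 as higher and 4 as lower at 20 weeks, against 17.8% and 13.9% of all genes. Pygl, liver glycogen phosphorylase, was at 0.64 ± 0.22 at 11 weeks (limma adjusted p 0.00136) and 0.75 ± 0.13 at 20 weeks (adjusted p 9.75e-05), above 0 on all 4 arrays. At 20 weeks Pck1, the enzyme that forms phosphoenolpyruvate in gluconeogenesis, was at 0.41 ± 0.48 and Gbe1, the glycogen branching enzyme, at -0.29 ± 0.23. Of 5 genes of phosphocreatine and adenylate transfer, 3 passed as higher at 20 weeks, Ckm at 0.32, Ckmt2 at 0.28 and Ak4 at 0.20, and 0 as lower. Ckm, the muscle creatine kinase, is counted among the skeletal muscle markers too, of which 4 of 7 passed as higher at 20 weeks, and Ckmt2 is the sarcomeric form. The part of muscle RNA in these values was not tested.

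**Figure D4:**
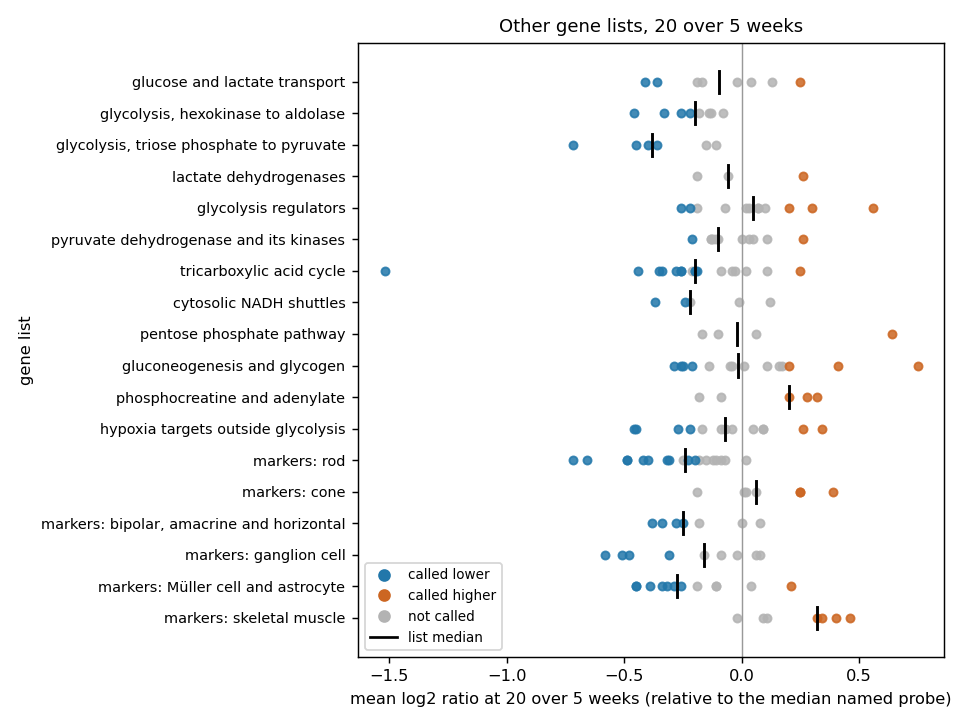
Mean log2 ratio of the 20-week over the 5-week retina (horizontal axis, relative to the median named probe) for every measured gene of 18 lists, without Ldha, Pkm, Tpi1 and Eno1. Points are genes, blue for those that passed as lower, orange for higher and grey for neither, and black bars are list medians. The bar of the steps from triose phosphate to pyruvate lies at -0.38 and that of skeletal muscle markers at 0.32.

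Markers of several retinal cell types had medians below the median named probe at 20 weeks. Uncentred, those medians were 0.03 for rods, 0.00 for Müller cells and astrocytes, 0.03 for bipolar, amacrine and horizontal cells and 0.11 for ganglion cells. Of 18 rod markers 9 passed as lower at 11 weeks and 10 at 20 weeks, and 0 as higher at either age. The rod medians were -0.15 and -0.37 on the 11-week arrays in Cy5 and Cy3, and -0.05 and -0.52 on the 20-week arrays, so they were lower on the Cy3 array of each pair, as each of the 4 enzymes was. At 20 weeks Guca1b, the guanylate cyclase activator, was at -0.72 ± 0.16, Rcvrn, recoverin, at -0.66 ± 0.31 and Prph2, the disc rim protein peripherin, at -0.49 ± 0.43. The 8 rod-list genes that did not pass at 20 weeks included Pde6a at 0.02, Grk1 at -0.09 and Sag at -0.15. Whether the genes of this list are confined to rods was not checked. Of 12 Müller cell and astrocyte markers, 3 passed as lower at 11 weeks, and 7 as lower and 1 as higher at 20 weeks, with medians of -0.05 and -0.28. Glul, the glutamine synthetase of Müller cells, was at -0.45 ± 0.56, Vim, vimentin, at -0.45 ± 0.07 and Car14, a carbonic anhydrase, at -0.39 ± 0.49 at 20 weeks. In a whole retina, fewer cells of a type and less RNA per cell cannot be told apart, and the part of these cell markers in the values of the 4 enzymes was not tested.

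Of 7 bipolar, amacrine and horizontal cell markers, 1 passed as lower at 11 weeks and 4 at 20 weeks, where Pcp2 was at -0.38, Calb2 at -0.34 and Prkca at -0.28. Of 9 ganglion cell markers, 2 passed as lower at 11 weeks and 4 at 20 weeks, where Nrn1 was at -0.58, Nefh at -0.51 and Nefl at -0.48. Of 7 cone markers, 1 passed each way at 11 weeks, and 3 passed as higher and 0 as lower at 20 weeks, against 17.8% and 13.9% of all genes (Opn1mw at 0.39, Pde6c and Cnga3 at 0.25 each). Markers of tissues that a dissection can carry along were also looked at, without a check that they come from those tissues alone. Of 10 lens markers, 6 passed as lower at 11 weeks and 4 at 20 weeks (Cryaa at -0.99, Crybb2 at -0.43 and Crybb3 at -0.35 at 20 weeks). All that passed were crystallins. Lim2, Bfsp1 and Crygd passed at neither age and stood at 0.10, 0.08 and 0.04 at 20 weeks. Whether the crystallin values came from lens or from retina was not tested. Of 7 skeletal muscle markers, 0 passed at 11 weeks and 4 as higher at 20 weeks (Mb at 0.46, Tnni2 at 0.40 and Tnnc2 at 0.34). Of 7 markers of pigment epithelium and choroid, 1 passed each way at 11 weeks, and 3 as higher and 1 as lower at 20 weeks (Tyr at 0.77, Mertk at 0.33 and Tyrp1 at -0.34). Of the 2 blood markers, Alas2 at 0.25 passed as higher at 20 weeks and Slc4a1 at 0.05 did not. Their part in the values of the 4 enzymes was not tested.

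The genes nearest to each enzyme were found by the root mean square distance between their centred log2 ratios over the 4 arrays, a likeness in age, dye and slide together. Nearest to Ldha were Rcvrn, at a distance of 0.061, Cst3, cystatin C, at 0.087, Rsrp1 at 0.092, Hmgn2 at 0.131 and Guca1b at 0.134, against a median distance of 0.662 over all genes. Of these 5, Rcvrn and Guca1b are on the list of rod markers, which was not checked for genes that cones share. Pkm was nearest to Tuba1a, a tubulin, at 0.141, Cdhr1, a photoreceptor cadherin, at 0.145, Cox8a at 0.163, Prph2 at 0.172 and Bsg at 0.173, against a median of 0.681. Tpi1 was nearest to Cst3 at 0.09, Eno1 at 0.094, Atp1b2, a sodium pump subunit, at 0.098, Selenow at 0.107 and Gapdhs at 0.111, against a median of 0.561. Eno1 was nearest to Atp1b2 at 0.057, Cpn1 at 0.071, Tpi1 at 0.094, Ptma at 0.104 and Syp, synaptophysin of synaptic vesicles, at 0.106, against a median of 0.562. Tpi1 and Eno1 were thus each among the 5 genes nearest to the other. Ranked by distance from Ldha, Tpi1 was in place 7, Eno1 in place 22 and Pkm in place 50. Since the 4 enzymes were chosen on these values, nothing is read from their nearness to each other. A gene far from 0 has a large median distance to all genes, so a distance under that median is no result.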

How the data were processed

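Pooled retinal RNA of albino Lewis rats was measured on 4 two-colour arrays, per the labels. The values as deposited by the authors were log2 channel ratios, a scale judged from the values, since 251 unnamed probes stood at a ceiling of 16.61, the log2 of 100000, and were set to missing. The sources used here give no scanner, normalization, centring or direction, and intensities were not used. Of 22575 probes, 12750 had 1 gene in the platform's table, 5 had several and 9820 had none, and the RefSeq gene table (GRCr8) held 12720 of the 12750 and changed 0 symbols. Each array was centred on its median named probe and turned to older over 5 weeks, and several probes of 1 gene were averaged.

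limma 3.58.1 (R 4.3.3) fitted the 11-week change, the 20-week change and a dye term over 9652 genes, with 1 residual degree of freedom and a prior of 8.83. Calls used two-sided p-values with Benjamini-Hochberg adjustment under 0.05, and the code was tested on simulated data. With the dye term, these p-values rest only on the prior and on how far the dye effect differed between the pairs, perhaps for technical reasons. The SDs of an age still include the dye effect, so an SD and a p-value measure different spreads. The number of arrays limits the precision. Alternatives were no dye term, no centring, centring on all probes, probe medians, probes tested singly, each array left out, and the direction turned. The 4 enzymes, the gene lists and the tests were chosen with earlier results of these data known. Named were the 4 enzymes, every other measured glycolytic enzyme and lactate dehydrogenase, and the 5 nearest genes of each enzyme. From each other list the 3 genes with the largest absolute mean at 20 weeks were named. Some genes were named after their values were seen (Slc2a1, Slc2a3, Hif1a, Egln2, Fbp2, Suclg2, Pde6a, Grk1, Sag, Lim2, Bfsp1, Crygd). Promoter windows were RefSeq's (GRCr8).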

Additional observations from a re-analysis of the deposited data

Results flagged for a closer look

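The 20-week and 11-week changes were set against each other in the genes of the energy lists. Each change was taken over 5-week retina, and whether both ages used the same 5-week extract is not stated. In limma with a dye term the difference of Gapdhs, Rpia and Hif1a passed. The share of all genes whose difference passed was not counted, so these passes are no result about the lists. This difference is given only for the fit with centring and a dye term. Gapdhs was lower at 20 weeks than at 11 weeks by a log2 difference of -0.51 (adjusted p 0.0169), and it stood at -0.41 and -1.03 on the 20-week arrays against -0.02 and -0.41 on the 11-week arrays. Rpia was higher by 0.82 (adjusted p 0.00187), with 0.85 and 0.43 against -0.13 and -0.22. Hif1a, a subunit of hypoxia-inducible factor, was higher by 0.38 (adjusted p 0.0483), with 0.40 and -0.26 against -0.05 and -0.58, so the arrays of the 20-week pair lay on opposite sides of the median named probe.

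For 6 further genes, and for Rpia, both 20-week arrays lay on one side of the median named probe and both 11-week arrays on the other, but the difference did not pass in those 6. Slc2a4 was at 0.25 and 0.24 against -0.10 and -0.04, a difference of 0.31 (limma adjusted p 0.0885). Pfkfb3 was at -0.15 and -0.37 against 0.12 and 0.07, a difference of -0.35 (adjusted p 0.0678). Egln2, an oxygen-sensing hydroxylase, was at -0.22 and -0.17 against 0.18 and 0.01, a difference of -0.29 (adjusted p 0.136). Fbp2, the muscle fructose bisphosphatase, was at -0.04 and -0.05 against 0.16 and 0.25, a difference of -0.25 (adjusted p 0.174). Hk1 was at -0.17 and -0.18 against 0.03 and 0.03, a difference of -0.21 (adjusted p 0.238). Suclg2, a subunit of succinyl-CoA synthetase, was at -0.03 and -0.06 against 0.20 and 0.00, the last just above the median named probe before rounding, a difference of -0.15 (adjusted p 0.441). Opposite sides on this few arrays also arise by chance, and slide and age cannot be told apart. The share of all genes with such a split was not counted, so the number of these genes is no result.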

How the results depend on the processing

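With the direction turned to Cy3 over Cy5, every sign was reversed, to 0.43 for Ldha, 0.37 for Pkm, 0.26 for Tpi1 and 0.20 for Eno1 at 11 weeks and to 0.70, 0.58, 0.59 and 0.56 at 20 weeks. Probe medians and single probes could not change the values of the 4 enzymes, which had 1 probe each. Nor could the dye term change a mean over exchanged dyes. Without centring, with centring on all probes and with each array left out, the 8 values of the 4 enzymes stayed below 0. With each array left out in turn and the dye effect taken from the other pair, they ran from -0.68 to -0.18 for Ldha, -0.49 to -0.26 for Pkm, -0.42 to -0.09 for Tpi1 and -0.31 to -0.09 for Eno1 at 11 weeks, and from -0.94 to -0.45, -0.70 to -0.47, -0.76 to -0.43 and -0.67 to -0.45 at 20 weeks. Of the 17 other enzymes, 5 were called lower and 1 higher at 11 weeks and 8 and 1 at 20 weeks. Without a dye term, as deposited without centring, and with any array left out (which leaves no degree of freedom for a dye term), limma called 0 in either direction at either age. At an unadjusted p under 0.05 these fits had 0 or 1 lower and 0 or 1 higher at 11 weeks, and 0 to 5 lower and 0 or 1 higher at 20 weeks. With probes tested singly, 0 were called at 11 weeks, and 6 lower and 0 higher at 20 weeks. Centring on all probes left 1 lower and 0 higher at 11 weeks. The cause was not tested. Beyond the shared slide and the exchanged dyes, no paired analysis was possible, because the labels carry no replicate numbers. Over all genes, the uncentred ratios gave 0 calls at 11 weeks and 132 higher and 1 lower at 20 weeks (37 and 1204 genes at an unadjusted p under 0.05). Centring on all probes gave 114 higher and 337 lower at 11 weeks, against 252 and 612. Single probes gave 0 higher and 2 lower at 11 weeks and 1569 and 942 at 20 weeks, of 22009 tested. With any array left out, 0 genes were called at 11 weeks and at most 5 in a direction at 20 weeks. Signal over background is unknown here, so a ratio near 0 from a dim probe cannot be told from one of a bright probe.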
